A study of Rattus norvegicus with 8 samples.

Results

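Voltage-gated calcium channels open when a neuron depolarizes and let calcium into the cell. Each channel is built on 1 pore-forming alpha-1 subunit, which sets the channel type, and on auxiliary subunits such as alpha-2-delta, which carry the channel to the membrane and are the binding site of gabapentin and pregabalin. P/Q and N type channels trigger transmitter release at nerve terminals, L type channels couple activity to gene expression, R type channels act in dendrites and terminals, and T type channels open near rest, favour burst firing and are the target of ethosuximide.

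The levels of 10 genes of this family were compared in the rat hippocampus: the P/Q type gene Cacna1a, the N type gene Cacna1b, the R type gene Cacna1e, the L type genes Cacna1c and Cacna1d, the T type genes Cacna1g, Cacna1h and Cacna1i, and the alpha-2-delta genes Cacna2d1 and Cacna2d2. They were taken by their gene identifiers, as a gene family and not by a threshold on measured values, from 22601 listed genes, and all 10 were among the 15593 that averaged 0.1 FPKM or more and were tested. FPKM scales fragment counts to transcript length and to the mapped fragments of a library, so levels can be compared between genes.

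RNA was sequenced from 8 wild type Wistar rats weighing 180 to 220 g at the start, 1 library per rat, and the sex of the rats is not given in the sources used here. In the PTZ group (n = 3) rats were kindled with pentylenetetrazol, a GABA-A receptor blocker, by 14 intraperitoneal injections of 35 mg/kg every 48 h over 28 days with a final dose of 60 mg/kg, and then received solvent. The Q808 group (n = 2) was kindled in the same way and was then given Q808, the anticonvulsant compound under study, by gavage at 30 mg/kg each day for 28 days. Controls (Con., n = 3) had saline and solvent over the same periods. Rats of the PTZ and Q808 groups had a further sub-convulsive dose of PTZ on the day after the last treatment. Animals were killed after the seizure evaluation that followed. The paper names no such dose for controls, so kindling and this late dose cannot be told apart in the comparisons with Con. Q808 was measured on top of kindling only. Whole tissue was used, and a smaller number of cells of a type cannot be told apart from less RNA per cell.

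Striatum markers were high in 3 libraries, Con.-3, PTZ-3 and Q808-1. There 6 such markers averaged 6.20 to 7.35 on the log2 scale, against 1.56 to 2.48 in the other 5. In the same 3, 6 markers of dentate granule cells, a defining hippocampal cell type, averaged 0.19 to 0.41 against 1.66 to 1.92. Of the latter, Prox1, C1ql2 and Trpc6 were lower in each of the 3 than in any other library. Dsp, Npnt and Tdo2 overlapped, with Tdo2 at 0.15 FPKM or less throughout. The 3 libraries were spread over all groups, 1 of 3, 1 of 3 and 1 of 2. Oligodendrocyte markers averaged 8.49 to 9.31 in them against 7.14 to 7.84, and general neuronal markers 6.85 to 7.46 against 7.73 to 7.97. Each member below is therefore given with its PTZ against Con. difference within the 5 libraries and within the 3. The part of the marker differences in the results was not tested.

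The most abundant member was Cacna2d1, with a mean of 36.4 FPKM over the 8 libraries, followed by Cacna1e at 27.6 and Cacna1a at 18.4. These steps held in every library, each gene standing above the next in 8 of 8. Cacna1h (13.8), Cacna1i (11.8), Cacna2d2 (11.5) and Cacna1b (11.01) formed a middle group whose order changed between libraries, the neighbours holding it in 5, 5 and 3 of 8. Cacna1b stood above Cacna1g in 8 of 8 libraries, and Cacna1g (6.52), Cacna1c (5.73) and Cacna1d (5.07) were the lowest, each above the next in 6 of 8. The R type gene was thus the most abundant alpha-1 gene in each of the groups by its mean, at 30.2 FPKM in Con., 28.8 in PTZ and 21.8 in Q808.

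**Figure D1:**
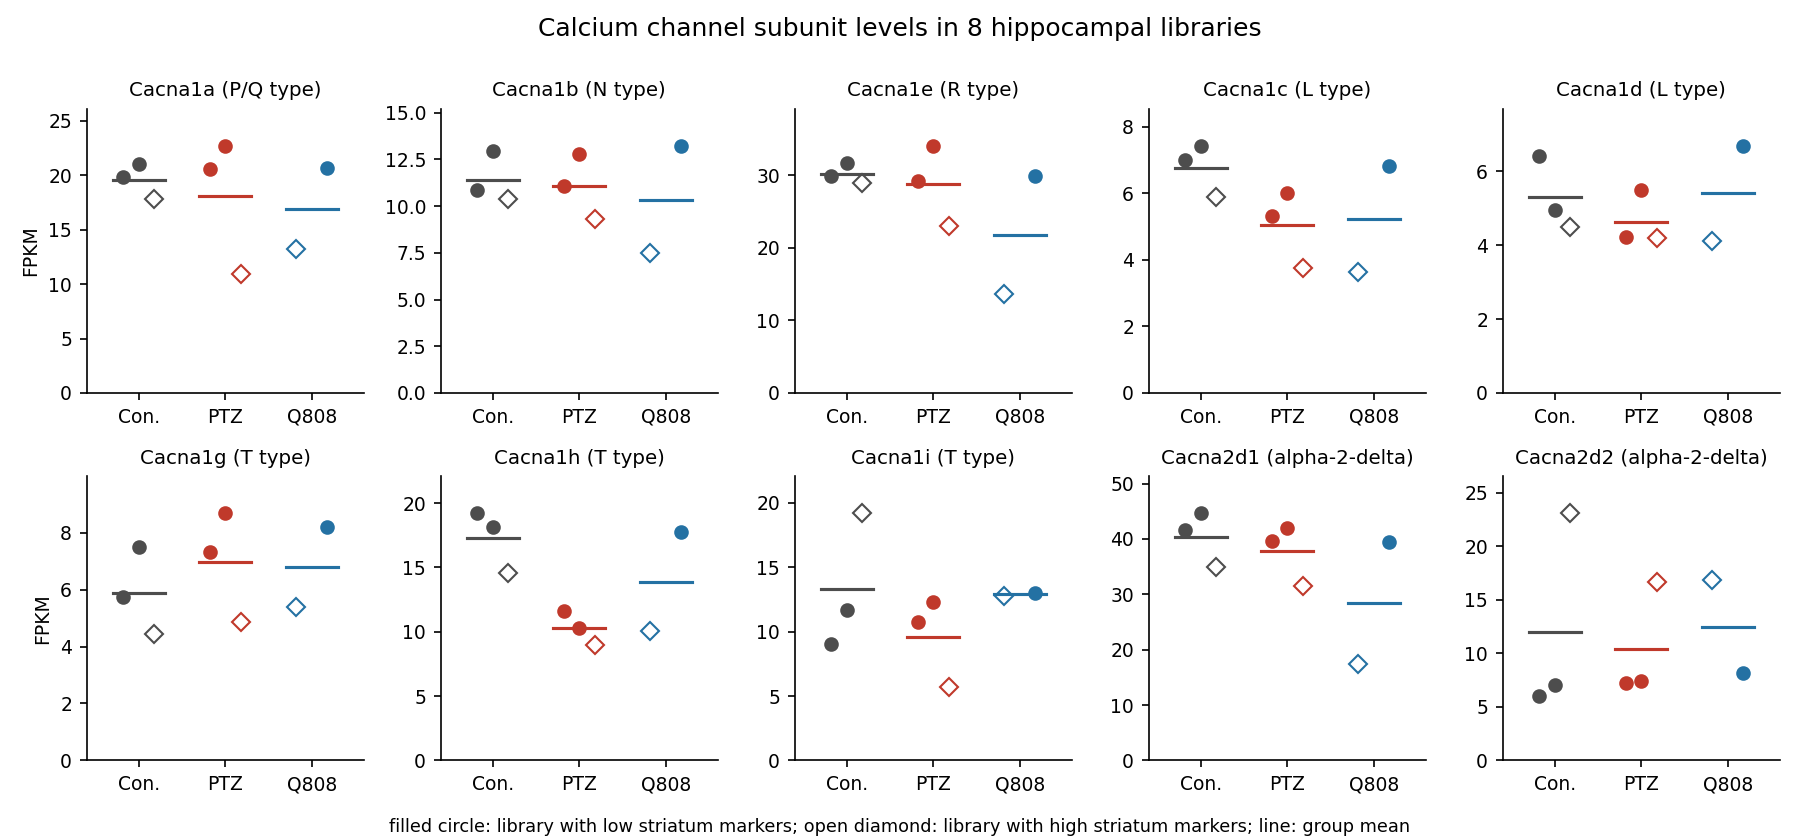
FPKM of the 10 calcium channel genes (vertical axes, linear, each from 0) in the Con., PTZ and Q808 groups. Each point is 1 library and each line the group mean, and open diamonds are the 3 libraries with high striatum markers. The 3 PTZ libraries of Cacna1h, between 8.99 and 11.6, all lie below the 3 Con. libraries, between 14.6 and 19.2.

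The rule used throughout was an unadjusted limma p under 0.05 with more than a 1.5-fold difference. Cacna1h was the only member that passed it between the PTZ and Con. groups. This gene encodes Cav3.2, a T type pore. It stood at 19.2, 18.1 and 14.6 FPKM in Con.-1, Con.-2 and Con.-3 and at 11.6, 10.3 and 8.99 FPKM in PTZ-1, PTZ-2 and PTZ-3. All 3 PTZ libraries were below all 3 controls.

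The mean of Cacna1h went from 17.3 ± 2.42 FPKM (SD, n = 3) in Con. to 10.3 ± 1.30 FPKM (SD, n = 3) in PTZ. On the log2(FPKM + 0.1) scale it fell by 0.74 (SE 0.17, 95% interval -1.14 to -0.34), which is 40.2% lower. Adjusted over all 15593 genes the limma p was 0.999, from 0.064 to 1 over the alternatives, so the difference does not pass a correction for the number of genes. The gene ranked 37 of 15593 by p. The unadjusted limma p was 0.00322, and an exact two-sided permutation test gave p = 0.1, the smallest that 3 against 3 rats allow. Over all genes 2.53% were called in this comparison and 9.15% had groups that did not overlap, and among the 10 members 1 was called and 1, the same gene, did not overlap. The difference of Cacna1h was -0.77 within the 5 libraries with low striatum markers and -0.69 between Con.-3 and PTZ-3. It was called in all 13 alternatives, at -0.86 to -0.65. Between Con.-3 and PTZ-3, 9 of the 10 members were lower in PTZ, Cacna1a at -0.70 and Cacna1c at -0.63 among them. The summed FPKM of the alpha-1 genes was 106 in Con.-3 and 70.7 in PTZ-3. It was 108 and 115 in Con.-1 and Con.-2 and 100 and 112 in PTZ-1 and PTZ-2.

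In the Q808 rats Cacna1h stood at 10.04 FPKM in Q808-1 and 17.8 FPKM in Q808-2. The first lay within the range of the PTZ libraries and the second within that of the controls. The mean of 13.9 ± 5.46 FPKM (SD, n = 2) differed from PTZ by 0.38 on the log2 scale (SE 0.29, 95% interval -0.32 to 1.08, exact permutation p = 0.6) and from Con. by -0.36 (SE 0.28, 95% interval -1.07 to 0.34, exact permutation p = 0.4). Neither passed, and both intervals include 0 as well as differences as large as that between PTZ and Con. Against PTZ the result turned on 1 library. Without Q808-1 the difference was 0.79 and was called, with 1 Q808 library that is assumed to vary like the PTZ libraries, and within the low-striatum libraries it was 0.69 and called (Q808-2 alone against 2 PTZ libraries), while between Q808-1 and PTZ-3 it was 0.16. Against Con. it was called lower without Q808-2, at -0.77, again with 1 Q808 library.

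Other marker lists varied between the libraries as well. Choroid plexus markers (5 genes such as Ttr, none at 0 in all libraries) averaged 4.46, 4.58 and 0.67 on the log2 scale in Con.-1 to Con.-3, 2.21, 1.72 and 2.94 in PTZ-1 to PTZ-3 and 1.38 and 6.14 in Q808-1 and Q808-2, so that Con.-1, Con.-2 and Q808-2 were highest for both. In Con.-3, which had the lowest choroid plexus value of all libraries, Cacna1h was at 14.6 FPKM and above every PTZ library. Thalamus markers (6 genes, none at 0 in all libraries) averaged 1.19 to 1.25 in Con., 0.67 to 1.13 in PTZ and 1.72 to 1.81 in Q808. Only Shox2 of this list had Con. and PTZ libraries that did not overlap. It was near the floor, at 0.627, 0.377 and 0.226 FPKM in Con. and 0, 0 and 0.105 in PTZ. Q808-1 had the highest thalamus value, 1.81, with Cacna1h at 10.04 FPKM. The part of these differences in the Cacna1h result was not tested.

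The other T type genes took different courses. Cacna1g, which encodes Cav3.1 and is known for its role in thalamic bursting, was at 5.73, 7.51 and 4.42 FPKM in Con., at 7.33, 8.67 and 4.86 in PTZ and at 5.38 and 8.21 in Q808, in replicate order. The groups overlapped, and the lowest library of each was the one with high striatum markers. Its log2 difference was 0.23 in PTZ against Con. (exact permutation p = 0.6) and -0.02 in Q808 against PTZ (p = 1). Within the low-striatum libraries PTZ and Con. differed by 0.28 and within the high-striatum ones by 0.13.

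Cacna1i encodes Cav3.3, the T type channel that inactivates most slowly. It stood at 9.09, 11.7 and 19.2 FPKM in Con.-1 to Con.-3, at 10.7, 12.3 and 5.73 in PTZ-1 to PTZ-3 and at 12.8 and 13.0 in Q808-1 and Q808-2. The Con. and PTZ libraries overlapped, with Con.-3 the highest library and PTZ-3 the lowest. In PTZ against Con. the log2 difference was -0.47 (SE 0.37, exact permutation p = 0.5), made of 0.16 within the 5 low-striatum libraries and -1.73 between Con.-3 and PTZ-3. Both Q808 libraries lay above all PTZ libraries, the only member for which these groups did not overlap, where 15.6% of all genes did not. The difference of 0.50 (SE 0.35, 95% interval -0.34 to 1.34) did not pass, and its exact permutation p of 0.2 is the smallest that 3 against 2 rats allow.

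The L type genes were lower in PTZ than in Con. by their means without passing. Cacna1c, which encodes Cav1.2, the main L type pore of hippocampal neurons, was at 7.00, 7.42 and 5.88 FPKM in Con., at 5.32, 6.02 and 3.76 in PTZ and at 3.63 and 6.83 in Q808. One PTZ library, PTZ-2, lay above the lowest control. The log2 difference between PTZ and Con. was -0.44 (SE 0.23, limma p = 0.0937, exact permutation p = 0.2), the second smallest limma p among the members, and it was -0.34 within the low-striatum libraries and -0.63 between Con.-3 and PTZ-3. In no alternative was it called. Cacna1d encodes Cav1.3, which opens at lower voltage than Cav1.2. Its 8 libraries lay between 4.13 and 6.69 FPKM, both from Q808 rats, and its difference between PTZ and Con. was -0.18 (exact permutation p = 0.5), at -0.23 within the low-striatum libraries and -0.10 within the others.

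The genes of the P/Q, N and R type pores showed no difference past the rule. Cacna1a, the P/Q type gene, was at 19.8, 21.0 and 17.8 FPKM in Con., at 20.6, 22.7 and 10.9 in PTZ and at 13.2 and 20.7 in Q808. Its 3 lowest libraries were the 3 with high striatum markers, and the means of 19.6 ± 1.60, 18.1 ± 6.29 and 16.9 ± 5.30 FPKM (SD, n = 3, 3 and 2) differed by less than the spread within the PTZ and Q808 groups. For Cacna1a the PTZ against Con. difference of -0.18 changed sign between the sets, at 0.08 within the low-striatum libraries and -0.70 between Con.-3 and PTZ-3. Cacna1b, the N type gene, ranged from 7.47 FPKM in Q808-1 to 13.2 FPKM in Q808-2, and in PTZ against Con. its log2 difference was -0.05 (exact permutation p = 0.9), at 0.001 within the low-striatum libraries and -0.16 within the others.

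Cacna1e, the R type gene, had a wide gap between the Q808 rats. It was at 29.9, 31.7 and 29.0 FPKM in Con., at 29.3, 34.1 and 23.0 in PTZ, and at 13.7 in Q808-1 against 29.9 in Q808-2. All libraries but Q808-1 lay at 23.0 or higher. The log2 difference was -0.09 in PTZ against Con. (exact permutation p = 0.8), -0.49 in Q808 against PTZ (SE 0.36, p = 0.6) and -0.57 (SE 0.33, exact permutation p = 0.6) in Q808 against Con. Between PTZ and Con. Cacna1e differed by 0.04 within the low-striatum libraries and by -0.33 within the others.

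The alpha-2-delta genes went opposite ways in the high-striatum libraries. Cacna2d1 was at 41.7, 44.6 and 34.9 FPKM in Con., at 39.7, 42.1 and 31.5 in PTZ and at 17.3 and 39.5 in Q808. Its 3 lowest libraries were the high-striatum ones, with Q808-1 furthest below the rest, as for Cacna1e. PTZ and Con. differed by -0.08 within the low-striatum libraries and by -0.15 within the others. The log2 difference was -0.10 (exact permutation p = 0.6) in PTZ against Con., -0.51 (SE 0.36, p = 0.4) in Q808 against PTZ and -0.62 (SE 0.36, p = 0.4) in Q808 against Con. With Q808-1 as the only Q808 library both genes were called lower than in PTZ, Cacna1e at -1.05 and Cacna2d1 at -1.11, a fit in which the spread comes from the PTZ libraries alone, and with Q808-2 as the only one neither was.

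Cacna2d2, the alpha-2-delta gene best known from cerebellar Purkinje cells, was higher in every high-striatum library than in any other. It was at 5.99, 7.00 and 23.1 FPKM in Con., at 7.22, 7.38 and 16.6 in PTZ and at 16.8 and 8.15 in Q808. The 3 high-striatum libraries averaged 18.8 FPKM and the other 5 averaged 7.15, a ratio of 2.63. Its log2 difference between PTZ and Con. was -0.04 (SE 0.56, exact permutation p = 1) and that between Q808 and PTZ was 0.28 (SE 0.47, p = 0.4). Within the low-striatum libraries PTZ and Con. differed by 0.17 and within the others by -0.47. Of the other 9 members, 8 had lower means in these 3 libraries, with ratios of 0.652 (Cacna1g) to 0.769 (Cacna1d), and Cacna1i had a ratio of 1.11. In 5 of these, Cacna1a, Cacna1b, Cacna1e, Cacna1g and Cacna2d1, every high-striatum library lay below all the others. Over all genes tested 15.2% were higher in the 3 libraries with no overlap and 9.59% lower. As a share of the summed FPKM of both alpha-2-delta members, Cacna2d2 made up 34.6% to 49.2% where striatum markers were high and 12.6% to 17.1% elsewhere.

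**Figure D2:**
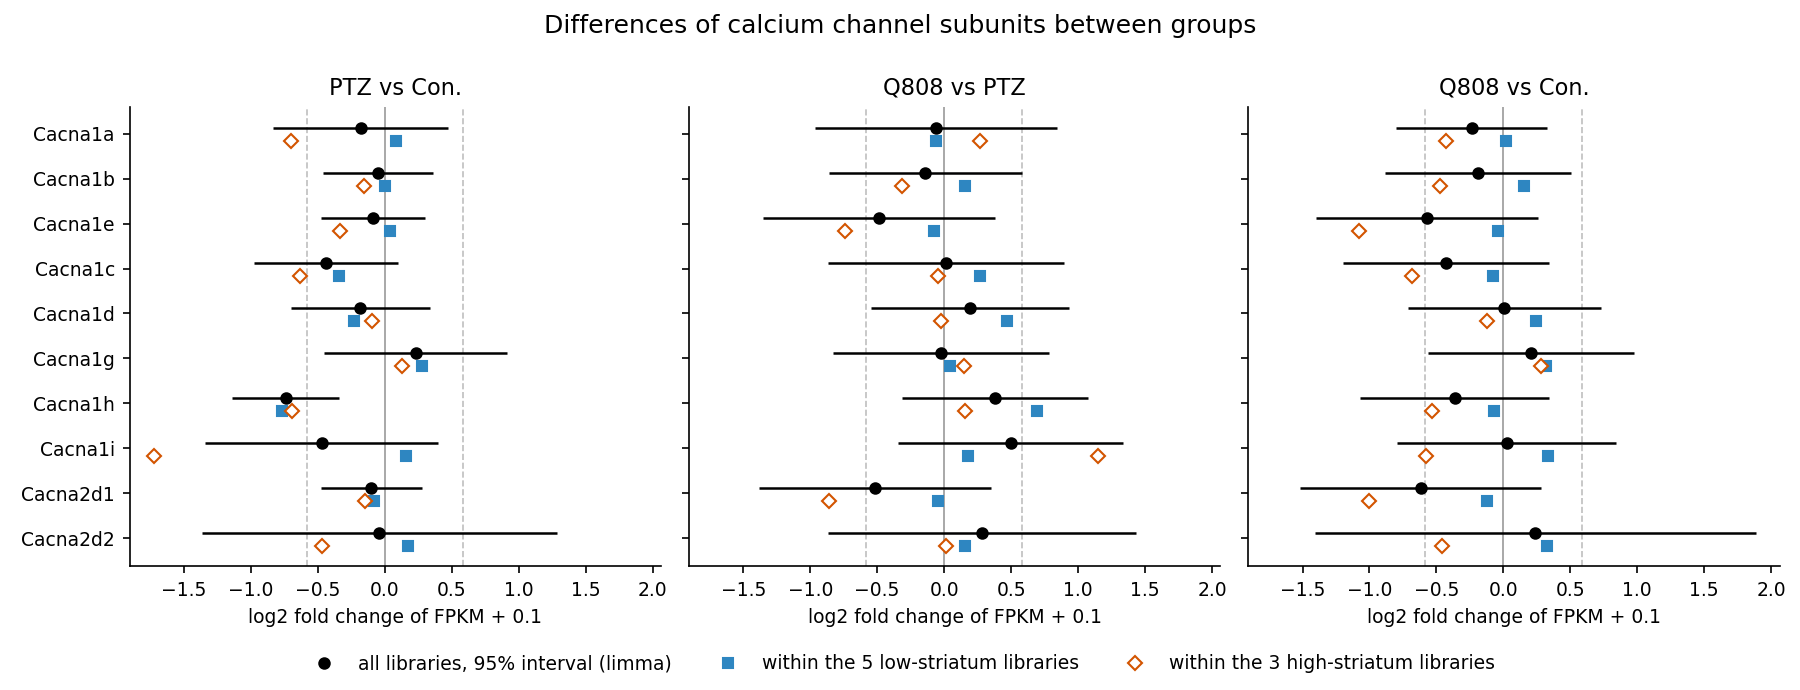
Log2 fold changes of FPKM + 0.1 (horizontal axes) of the 10 genes in the 3 group comparisons, one panel each. Black points with bars are limma estimates with 95% intervals, blue squares are differences within the 5 low-striatum libraries, orange diamonds those within the 3 high-striatum libraries, and dashed lines mark 1.5-fold. For Cacna1h in PTZ against Con. the interval (-1.14 to -0.34) leaves out 0 and both within-set values lie close to the estimate. The high-striatum value there is 1 library against 1, a pair in which 9 of the 10 genes were lower in PTZ.

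Across the family, 9 of 10 members were lower in PTZ than in Con. by their mean log2 value, and the members' median difference was -0.14 against -0.04 over all genes tested. The count of 9 rested on PTZ-3: without this library 5 were lower, and within the 5 low-striatum libraries 4 were lower and 6 higher. In Q808 against PTZ 5 were higher and 5 lower, with a median of -0.01 against 0.10 over all genes, and none was called, where 1.92% of all genes were. In Q808 against Con. 4 were higher and 6 lower (6 and 4 within the low-striatum libraries), with a median of -0.21 against 0.04, and none was called, where 3.46% of all genes were. No member had groups that did not overlap there, against 20% of all genes. PTZ against Con. and Q808 against PTZ share the PTZ libraries, so a high or low PTZ value moves both.

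The make-up of the alpha-1 genes was compared as shares of their summed FPKM within each library, a measure chosen after the values were seen. Cacna1h made up 17.8%, 15.7% and 13.8% in Con., 11.6%, 9.19% and 12.7% in PTZ and 14.3% and 15.3% in Q808. Every PTZ library lay below every library of both other groups. The means were 15.8% ± 2.00 (SD, n = 3), 11.2% ± 1.79 (SD, n = 3) and 14.8% ± 0.706 (SD, n = 2).

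All 3 T type genes together made up 31.5%, 32.4% and 36.1% in Con., 29.6%, 27.9% and 27.7% in PTZ and 40.1% and 33.5% in Q808, and again the PTZ libraries were the lowest. The P/Q, N and R type genes made up 56.1%, 56.9% and 54.1% in Con., 60.9%, 61.9% and 61.1% in PTZ and 48.9% and 54.9% in Q808, where the PTZ libraries were the highest. Cacna1g and Cacna1i together overlapped between Con. (13.7% to 22.3%) and PTZ (15.0% to 18.7%). These shares sum to 100% with the L type, so the fall of 1 is in part the rise of another. For the Cacna1h share the exact permutation p was 0.1 between PTZ and Con. It was 0.2 between PTZ and Q808 and 0.8 between Con. and Q808. The T type share gave 0.1, 0.2 and 0.4 in the same order, as did the P/Q, N and R type share. The values 0.1 and 0.2 are the smallest that these group sizes allow. Since the measure was chosen after the values were seen, these p-values are descriptive only. The L type share, 9.52% to 12.4%, overlapped between all groups.

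**Figure D3:**
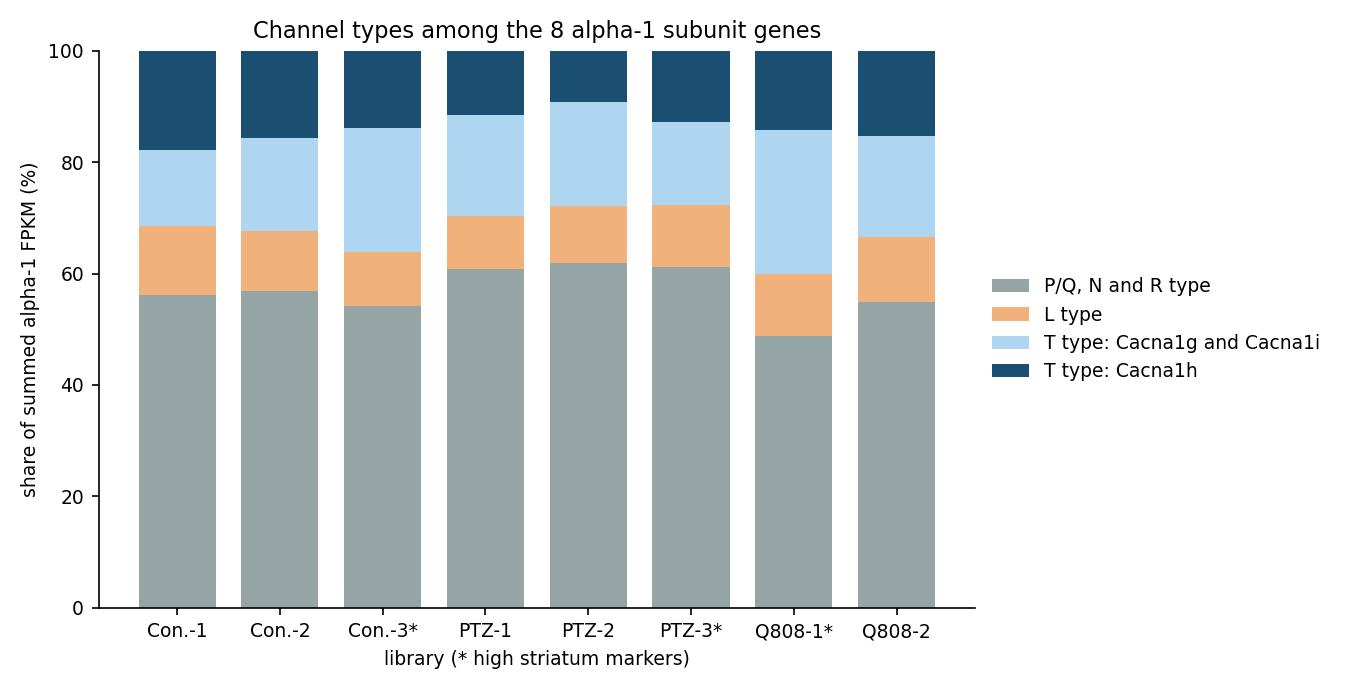
Share of the summed FPKM of the 8 alpha-1 genes (vertical axis, percent) taken by each channel type in each library, with the T type split into Cacna1h and the other T type genes. Asterisks mark the libraries with high striatum markers. The Cacna1h segment spans 9.19% to 12.7% in PTZ and 13.8% to 17.8% in the other libraries.

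Other subunits were compared as a list. Of 18 genes (the beta, gamma and remaining alpha-2-delta subunits, the retinal and muscle L type pores, Cachd1 and Nalcn) 15 were tested. None was called as fitted in PTZ against Con. or in Q808 against Con. In Q808 against PTZ 1 of the 15 was called (1.92% of all genes were), Cacng3, whose product is a transmembrane AMPA receptor regulatory protein and acts mainly on glutamate receptors. It was at 38.6, 42.8 and 80.5 FPKM in Con., at 60.3, 74.3 and 67.8 in PTZ and at 34.7 and 45.2 in Q808. Both Q808 libraries lay below all PTZ libraries, and the log2 difference was -0.76 (SE 0.19, limma p = 0.00677, adjusted p = 0.952, exact permutation p = 0.2). It was called in 10 of 12 alternatives, and was under 1.5-fold without Q808-1 (-0.57) and without all 3 high-striatum libraries (-0.56). In PTZ against Con. Cacng3 differed by 0.40 as fitted and was not called. It was called higher in 2 of 13 alternatives, without Con.-3 (0.72) and without the 3 high-striatum libraries (0.72). Between Con.-3 and PTZ-3 it differed by -0.25. The median difference of the 15 genes was -0.04 in PTZ against Con., -0.12 in Q808 against PTZ and -0.13 in Q808 against Con., where all genes had medians of -0.04, 0.10 and 0.04. Cacna2d3, the third alpha-2-delta gene and named here after its values were seen, ranged from 29.9 to 74.7 FPKM with no difference past the rule.

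Among 22 genes of channel inhibitors and partners (RGK proteins, Stac adaptors, calmodulins, active zone proteins and calcium-activated potassium channels), 21 were tested. In PTZ against Con. 2 of the 21 were called, beside 2.53% of all genes, both higher and both of the RGK family, small GTP-binding proteins that bind the channel's beta subunit and inhibit high-voltage-activated calcium currents. The median difference of the 21 genes was 0.08 in PTZ against Con., -0.12 in Q808 against PTZ and -0.05 in Q808 against Con., beside the all-gene medians given above.

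Rrad, an RGK gene, was at 2.32, 1.72 and 2.25 FPKM in Con., at 3.32, 4.95 and 4.21 in PTZ and at 4.46 and 3.46 in Q808. All kindled rats, with and without Q808, lay above all controls. In PTZ against Con. it rose by 0.95 (SE 0.25, limma p = 0.00640, adjusted p = 0.999, exact permutation p = 0.1), by 0.99 within the low-striatum libraries and 0.88 between Con.-3 and PTZ-3, and it was called in all 13 alternatives. In Q808 against Con. it rose by 0.89 (SE 0.26, limma p = 0.0153, adjusted p = 0.901, exact permutation p = 0.2) and was called in 9 of 12 alternatives. Q808 and PTZ differed by -0.06 (95% interval -0.77 to 0.64).

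Gem, a second RGK gene, was at 1.51, 1.18 and 2.89 FPKM in Con., at 2.76, 6.39 and 3.86 in PTZ and at 4.56 and 2.09 in Q808. PTZ-1 lay below Con.-3, so these groups overlapped. The log2 difference of PTZ against Con. was 1.19 (SE 0.43, limma p = 0.0266, adjusted p = 0.999, exact permutation p = 0.2), and the call was lost when Con.-1, Con.-2, PTZ-2 or PTZ-3 was left out.

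Rem2 was the RGK gene with the highest level, at 12.8, 10.2 and 29.1 FPKM in Con., 16.7, 24.9 and 12.8 in PTZ and 10.7 and 9.88 in Q808. Both Q808 libraries lay below all PTZ libraries. The log2 difference was -0.76 (SE 0.30, limma p = 0.0431, adjusted p = 0.952, exact permutation p = 0.2), called in 5 of 12 alternatives. In PTZ against Con. Rem2 differed by 0.16 and was not called as fitted. There it changed sign between the sets, at 0.83 and called within the low-striatum libraries and -1.18 between Con.-3 and PTZ-3. Rem1, the fourth RGK gene and named after its values were seen, was at 0.301 to 1.00 FPKM in Con., 0.501 to 1.02 in PTZ and 1.03 to 2.34 in Q808, and was not called in any comparison as fitted. It was called with the replicate block in Q808 against PTZ (1.06) and in Q808 against Con. (1.58), and in the latter also without Con.-3 (1.58).

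**Figure D4:**
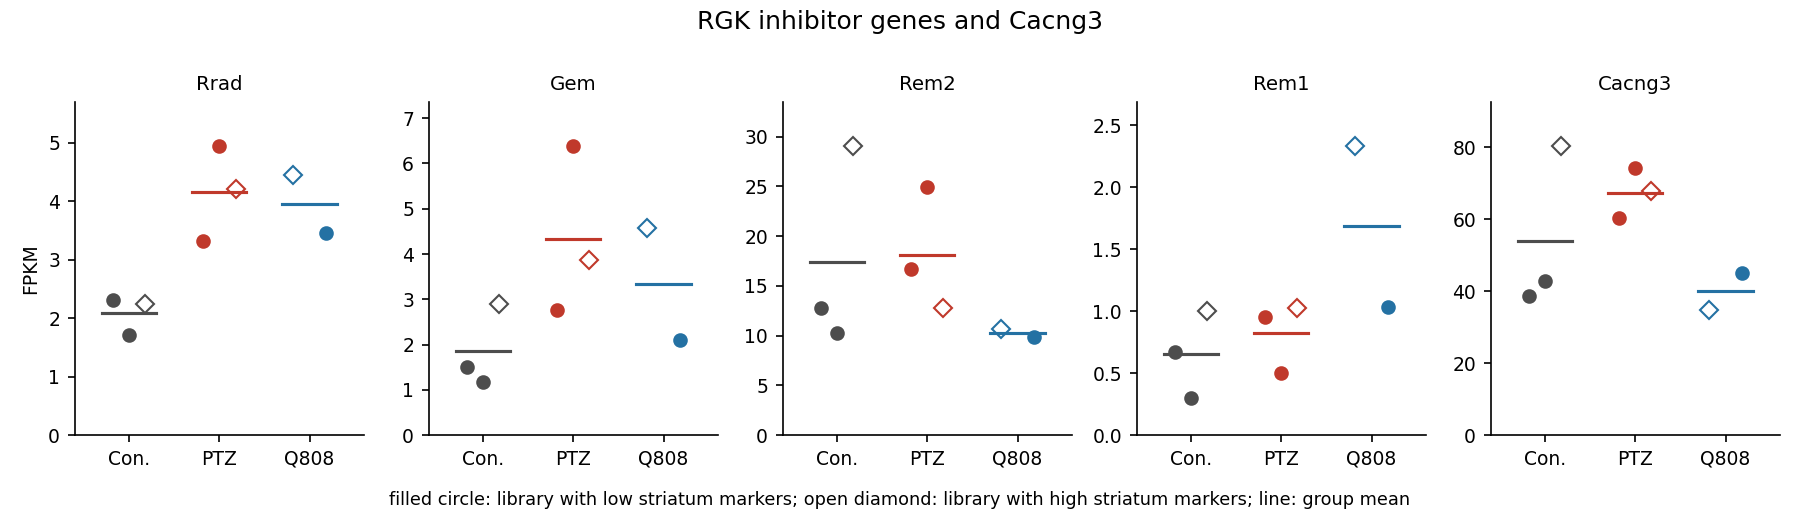
FPKM of the 4 RGK inhibitor genes and of Cacng3 (vertical axes, linear, each from 0) by group, with 1 point per library, lines at group means and open diamonds for the libraries with high striatum markers. For Rrad the 3 Con. libraries (1.72 to 2.32) lie below all PTZ and Q808 libraries (3.32 to 4.95).

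Of 3 transcription factors reported to act on the Cacna1h promoter, Egr1, Rest and Mtf1, all were tested and none was called with all libraries and no block. Egr1, an immediate early gene of neuronal activity, was at 30.4, 41.5 and 148 FPKM in Con., at 81.6, 175 and 47.8 in PTZ and at 61.5 and 75.3 in Q808. Its spread within Con. and within PTZ was wider than the gap between them, at 0.62 on the log2 scale (SE 0.67, exact permutation p = 0.5), and the difference was 1.75 within the low-striatum libraries and called there, but -1.63 between Con.-3 and PTZ-3. Without Con.-3 alone it was 1.31 and called. Egr1 was also called with the replicate block in Q808 against PTZ (-0.81), and higher in 3 of 12 alternatives in Q808 against Con. Mtf1, a zinc-sensing factor, ranged from 3.02 to 6.09 FPKM and differed by -0.01 between PTZ and Con. (exact permutation p = 0.9).

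Genes whose levels followed the members most closely were sought among all genes averaging 1 FPKM or more, by the root mean square (RMS) difference of centred log2 values over the 8 libraries. For Cacna1h, whose own values had an RMS of 0.405 around their mean, the closest were C7h8orf76 (0.150), Dgkh (0.158), a diacylglycerol kinase, and Pcdh20 (0.166), a protocadherin. For Cacna2d1 they were Tmem130 (0.0758), Cacna1e (0.0789) and Maged1 (0.0824), and for Cacna1e they were Mgat4a (0.0584), Cacna2d1 (0.0789) and Grm7 (0.0803), a presynaptic glutamate receptor. The R type gene Cacna1e and the alpha-2-delta gene Cacna2d1 were thus each among the 3 genes closest to the other. Both were lowest in Q808-1, at 13.7 and 17.3 FPKM. General neuronal markers were lowest there as well, at 6.85 on the log2 scale, against 7.42 to 7.97 in the other libraries. The part of neuronal content in this likeness was not tested. The next closest pair of members, Cacna1a and Cacna1c, was at 0.178.

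The promoters of Cacna2d1 and Cacna1e are shown as those of the closest pair of members, and they differ in base content. Whether the promoters bear on the similar course of these genes was not tested. The 250 bases before each start are from RefSeq on the GRCr8 build, both on the minus strand, at chr4:20330148-20330397 for the first of 3 listed starts of Cacna2d1 and at chr13:69444811-69445060 for Cacna1e. Capitals mark matches to the EGR motif (GCGTGGGCG or GCGGGGGCG, either strand), searched because Egr1 was in the list above.
Cacna2d1: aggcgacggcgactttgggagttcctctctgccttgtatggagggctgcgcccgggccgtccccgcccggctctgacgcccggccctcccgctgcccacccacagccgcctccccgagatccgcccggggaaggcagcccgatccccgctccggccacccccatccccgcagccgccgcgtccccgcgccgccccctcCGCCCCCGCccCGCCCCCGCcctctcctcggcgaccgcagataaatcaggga
Cacna1e: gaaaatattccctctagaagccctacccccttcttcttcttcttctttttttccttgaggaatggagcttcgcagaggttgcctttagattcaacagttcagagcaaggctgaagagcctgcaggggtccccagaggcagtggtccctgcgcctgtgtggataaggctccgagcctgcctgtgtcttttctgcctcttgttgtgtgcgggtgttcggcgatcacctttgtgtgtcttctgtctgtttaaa

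The Cacna2d1 stretch was 77.2% G and C and the Cacna1e stretch 51.2%. The motif was present 2 times in the first, beginning 52 and 41 bases before the start, and was not in the second. Promoters of 7 of the 10 members were in the table, 9 promoters in all, and the motif was in 2 of the 9, of Cacna2d1 and Cacna1b (the N type gene, 2 matches, 115 and 103 bases before the start), where 3.20% of all 33469 promoters hold it. The metal response element (TGCACNC or TGCGCNC, either strand) is the motif of Mtf1. It was in 5 of the 9, of Cacna1d, Cacna2d1 (all 3 overlapping starts) and Cacna2d2, where 24.2% of all promoters hold it. By gene it was in 3 of the 7, since promoters of overlapping starts can hold the same match. A match of letters is a description and not a bound site. No promoter of Cacna1h, Cacna1g or Cacna1i was analysed here.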

How the data were processed

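The authors deposited 1 table per library with gene-level FPKM values. Their processing notes name Trimmomatic, HISAT2, Cufflinks, HTSeq, DESeq, Bowtie2, StringTie and SAMtools without versions, and the genome build is not given in the sources used here. FPKM hold no read depth, so counting error is unknown and no count test was run.

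Tables were joined by gene identifier and analysed as log2(FPKM + 0.1), a scale that understates changes of low genes. Genes with a mean of at least 0.1 FPKM were fitted with limma 3.58.1 (R 4.3.3, empirical Bayes with a trend), each comparison on its own 2 groups. The call rule was that of the study, a p under 0.05 before adjustment with a difference over 1.5-fold, with Benjamini-Hochberg adjusted p-values over all tested genes beside it. The fit was checked on simulated data with the same spread for every gene and no high-striatum libraries. That check does not cover the spread seen in these libraries. Exact tests used scipy 1.17.1. Alternatives were a pseudocount of 1, no filter on low values, 1 fit over all groups, median ratio scaling, quantile normalization, the replicate block, the 3 high-striatum libraries left out, and each library left out in turn. Marker values are means of log2(FPKM + 0.1) over a list.

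Deviations from the group means correlated between same-numbered rats of PTZ and Con. (0.212, 0.299 and 0.422 over genes). A fit with replicate number as a block was therefore run. Con.-3 and PTZ-3 are both high-striatum libraries, and deviations within a group are not independent of each other. The correlations thus cannot tell a pairing of rats from this shared marker difference, and are no evidence of pairing. Cacna1h was called with the block as without it, and the count over all genes went from 395 to 616. The labels do not say what a shared number stands for.

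Named genes were all 10 members, every called gene of 3 lists (or the 2 most abundant where none was called), and the 3 genes closest to the member with the smallest p in each comparison. Members and lists were chosen with earlier results of these data known.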

Additional observations from a re-analysis of the deposited data

How the results depend on the processing

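Cacna1h in PTZ against Con. was called in all 13 alternatives, as the 1 member called in each. Of 370 alternative values of the members, none turned a call or ended one, 9 turned an uncalled difference into a called one, and 53 changed the sign of an uncalled one. Without the 3 high-striatum libraries 1 member was called in Q808 against PTZ, where Q808-2 alone stands for its group and is assumed to vary like the PTZ libraries. Leaving out 1 library gave 0 to 2 called members in Q808 against PTZ and 0 to 5 in Q808 against Con., the 5 without Q808-2 (Cacna1b -0.60, Cacna1c -0.87, Cacna1e -1.13, Cacna1h -0.77 and Cacna2d1 -1.21).

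Over all genes the 395 called in PTZ against Con. became 219 with a pseudocount of 1, 616 with the replicate block, 1530 without the 3 libraries and 249 to 1135 with 1 library left out (249 without PTZ-2, 639 without Con.-3, 1135 without PTZ-3). The 300 in Q808 against PTZ became 1894 with the replicate block, 1444 without the 3 libraries and 132 to 1569 with 1 left out (132 without PTZ-1, 149 without PTZ-2, 1301 without Q808-2, 1569 without PTZ-3). The 540 in Q808 against Con. became 340 with a pseudocount of 1, 1076 with the replicate block and 279 to 1799 with 1 left out (279 without Con.-2, 351 without Q808-1, 1799 without Q808-2). The Q808 comparisons share only 2 replicate numbers. Their deviations correlated at -0.295 and 0.322 against PTZ and at -0.379 and 0.527 against Con. Of the libraries numbered 1, only Q808-1 is a high-striatum one. There too the block is no evidence of pairing. At an adjusted limma p under 0.05, 0, 0 and 1 genes passed, against 589, 341 and 667 at an unadjusted p under 0.05. The causes of these shifts were not tested.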
